A study of Mus musculus with 23 samples.

Results

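The comparison is between ventricles of mice that overexpress the mineralocorticoid receptor in cardiomyocytes and were given aldosterone (MR-Cardio + aldosterone, n = 6) and ventricles of untreated MR-Cardio mice (n = 7). Its members were chosen by the sample titles, which gave 13 of the 23 arrays of the series. All 13 mice carry the transgene, and all 23 are males. The other 10 arrays, from non-transgenic control mice with aldosterone (n = 5) and without treatment (n = 5), served for the spread between mice and for the same comparison in the other genotype. The labels give a treatment duration of 7 days. The promoter and species of the transgene, the number of transgenic lines, the aldosterone dose and route, the animals' ages and the hour of tissue collection are not stated in the labels. Each array held the Cy5-labelled heart RNA of 1 mouse and a Cy3-labelled RNA pool made from 5 organs (spleen, kidney, heart, brain and liver). A value is the log2 ratio of heart over pool, so that 1 unit is a 2-fold difference, and a ratio below 0 means less of the RNA in the heart than in the pool. The design asks which genes aldosterone alters in the heart when the cardiomyocyte receptor level is raised. Differences between groups were tested with limma over 21892 named genes, and a gene is said to have risen or fallen where its Benjamini-Hochberg adjusted p was under 0.05.

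The mineralocorticoid receptor, encoded by Nr3c2, is a nuclear receptor that binds aldosterone and moves to the nucleus, where it acts as a transcription factor. In kidney it governs sodium reabsorption. Cardiomyocytes also have the receptor, where cortisol or corticosterone can occupy it because little of the enzyme Hsd11b2, which inactivates these hormones, is made there. Excess aldosterone is known in the heart for hypertrophy, inflammation and fibrosis.

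Nr3c2, the overexpressed gene, had a lowest, median and highest log2 ratio of 2.54, 4.08 and 4.83 in treated MR-Cardio mice and 2.49, 2.74 and 4.15 in untreated MR-Cardio mice. In control hearts it lay between 0.02 and 0.43 with aldosterone and between 0.18 and 0.55 without, below every MR-Cardio heart. The treated and untreated MR-Cardio mice overlapped, and their difference of 0.75 ± 0.32 (SE) did not pass limma's test (adjusted p = 0.27). Cardiomyocyte markers were high against the pool, and the mean ratio of 10 atrial markers lay between −2.99 and −2.31 in the MR-Cardio mice. The mean ratio of 12 cardiomyocyte markers lay between 1.27 and 2.12 in the treated MR-Cardio mice and between 1.90 and 2.32 in the untreated ones. The liver marker mean was −4.97 or lower in every one of these 13 mice, and between −4.21 and −3.99 in control mice. The spike-in slope measures the width of an array's ratios on its spike-in control probes. It was 1.003 to 1.029 on MR-Cardio arrays and 0.964 to 0.982 on control arrays. Whether ratios of the 2 genotypes are on the same scale was not tested. Treated mouse 1 stood apart from its group. Its cardiomyocyte marker mean was 1.27 against 1.95 or more in the other 5 treated mice, its oxidative phosphorylation mean was 0.64 against 1.26 or more, and its fibroblast marker mean was 3.45 against 2.93 or less. Spike-in control ratios were low on 5 arrays, with offsets between −0.50 and −0.34 in treated mice 4 and 6 and untreated mice 3, 4 and 7, and of −0.14 or more in the other 8 mice. The counts of changed genes are given with and without these mice.

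Aldosterone changed 314 of 21892 genes (1.43%) in MR-Cardio hearts, of which 208 rose (0.95%) and 106 fell (0.484%). Rises were between 0.25 and 2.12 and falls between −0.21 and −2.82 on the log2 scale, and 107 genes changed by 1 or more. The leading group was that of the cell cycle: mitotic kinases, kinetochore and spindle genes rose together in treated hearts. Clock-controlled transcription factors such as Tef and Dbp fell. Single genes of acute-phase response (Lcn2), calcineurin signalling (Rcan1), endothelial adhesion (Sele) and glucose metabolism (Pdk3 higher, Pfkfb2 and Fbp2 lower) also passed. Without treated mouse 1, 199 genes passed, 147 of them higher and 52 lower, and 169 of these were among the 314. Without the 5 arrays of low spike-in offset, 237 genes passed, and 84 of these were among the 314. Of the 58 passing genes named here, 25 passed without those 5 arrays, among them Kifc1, Kif18b, Prc1, Rcan1, Sele, Pfkfb2, Fbp2, Sun3 and Rbp4. The other 33 kept their direction and missed the threshold, among them Pbk (2.14, limma adjusted p = 0.0522), Top2a (1.79, 0.0501), Lcn2 (0.81, 0.0544), Pdk3 (1.53, 0.0522), Tef (−0.56, 0.0605) and Dbp (−0.65, 0.104). The 314 calls, and the SE of each difference, rest on a spread estimated over all 4 groups. This spread was not equal between groups. For Top2a the SD was 0.95 in treated and 0.61 in untreated MR-Cardio mice. It was 0.17 and 0.40 in control mice with and without aldosterone. Where control mice varied less, as here, pooling lowers the SE, which then does not give the spread of the MR-Cardio mice. With only the 13 MR-Cardio arrays in the fit, 0 genes passed, 2562 had an unadjusted p under 0.05, and the smallest adjusted p of a gene named below was 0.118.

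Mitotic genes are switched on late in the cell cycle, and many of their promoters hold a cell cycle genes homology region (CHR), which binds complexes with Mybl2 and Foxm1, and CCAAT boxes, which bind NF-Y. Promoter windows from RefSeq (GRCm38.p6, 250 bases before to 50 after the start of the gene) are shown for genes among the highest rises and smallest p-values, in the direction of the gene. Capitals mark the CHR letters TTTGAA and TTCGAA and the CCAAT box, searched on both strands, so that TTCAAA and ATTGG are also marked. Matches of different motifs may overlap. The windows are Kif18b at chr11:102925075-102925374 (minus strand), Prc1 at chr7:80294201-80294500 (plus strand), Bub1 at chr2:127831810-127832109 (minus strand) and Top2a at chr11:99024140-99024439 (minus strand).
Kif18b: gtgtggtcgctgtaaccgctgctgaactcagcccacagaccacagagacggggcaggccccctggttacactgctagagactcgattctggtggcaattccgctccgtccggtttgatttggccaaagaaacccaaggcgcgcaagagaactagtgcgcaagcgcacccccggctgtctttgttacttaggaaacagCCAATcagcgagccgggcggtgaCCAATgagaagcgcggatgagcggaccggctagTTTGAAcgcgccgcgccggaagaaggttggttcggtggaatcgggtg
Prc1: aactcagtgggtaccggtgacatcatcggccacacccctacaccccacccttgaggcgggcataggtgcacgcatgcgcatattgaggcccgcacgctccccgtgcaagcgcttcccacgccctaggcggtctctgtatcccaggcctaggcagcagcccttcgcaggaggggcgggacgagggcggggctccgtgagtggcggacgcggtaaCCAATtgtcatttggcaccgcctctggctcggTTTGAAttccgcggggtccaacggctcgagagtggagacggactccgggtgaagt
Bub1: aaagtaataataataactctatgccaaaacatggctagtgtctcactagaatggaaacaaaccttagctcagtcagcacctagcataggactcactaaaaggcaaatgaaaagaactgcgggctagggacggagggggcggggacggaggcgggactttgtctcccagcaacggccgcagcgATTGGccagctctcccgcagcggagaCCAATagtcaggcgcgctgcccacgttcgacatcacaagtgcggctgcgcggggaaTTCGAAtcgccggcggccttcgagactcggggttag
Top2a: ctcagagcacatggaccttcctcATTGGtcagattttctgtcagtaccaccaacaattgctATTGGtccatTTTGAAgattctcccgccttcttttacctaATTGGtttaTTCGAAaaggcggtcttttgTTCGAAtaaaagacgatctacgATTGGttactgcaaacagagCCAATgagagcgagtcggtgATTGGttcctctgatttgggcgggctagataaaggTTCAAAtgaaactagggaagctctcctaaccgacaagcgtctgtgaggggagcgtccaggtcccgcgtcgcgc
Kif18b, Prc1 and Bub1 have their CCAAT box or boxes upstream of a CHR near the start, and Top2a has several of each. A CHR was found in 31 of 51 windows (60.8%) of the cell cycle genes that rose, in 25 of 52 (48.1%) of the cell cycle genes on the lists that did not pass, and in 17.2% of the 17195 windows of measured genes. A CHR together with a CCAAT box was found in 51.0%, 38.5% and 7.11% of these windows. Among genes that rose, a CHR stood in 21 of 27 windows of kinetochore and spindle genes, in 10 of 15 of cyclins and mitotic kinases and in 0 of 9 of replication genes. Replication genes were 10 of the 58 that rose and 23 of the 69 that did not pass. Shares by list were not counted among the latter. The part of this mix of lists in the gap between 60.8% and 48.1% was not tested. All motif counts are matches of letters, not measured binding.

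**Figure D1:**
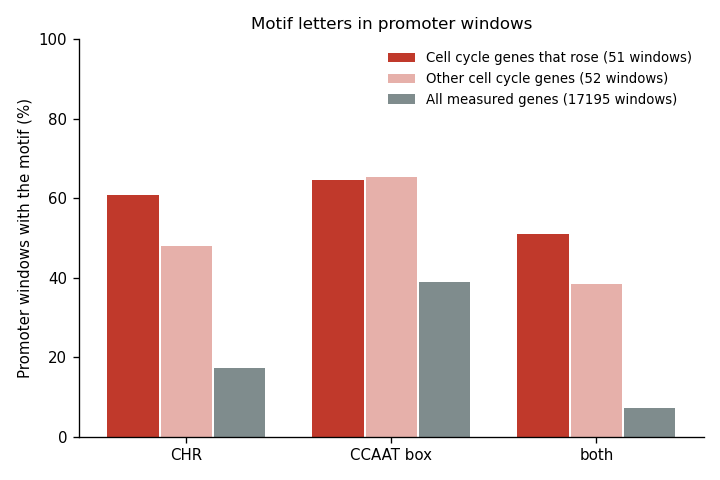
Share of promoter windows (percent, 250 bases before to 50 after the start) that hold a CHR, a CCAAT box or both, for cell cycle genes that rose, for the other cell cycle genes on the lists and for all measured genes. A CHR stood in 60.8% of the windows of genes that rose, in 48.1% of the other cell cycle windows and in 17.2% of all windows. The cell cycle genes that rose and the others differ in their mix of lists.

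Over 3 lists of cell cycle genes, 127 were measured, and 58 rose and 0 fell, against 0.95% and 0.484% of all genes. The median difference was 0.72, against −0.02 over all genes, and 116 of the 127 were higher by value, against 45.6% of all genes. An unadjusted p under 0.05 with a higher value was reached by 98 of them, against 6.68% of all genes. The mean ratio over these 127 genes was 0.01, −0.04, −0.13 and −0.42 in treated mice 1, 2, 4 and 6, −0.77 in treated mouse 5 and −1.05 in treated mouse 3. In the 7 untreated mice it lay between −1.29 and −0.99. Treated mouse 3 therefore lay inside the untreated range, and the other 5 lay above it. Without treated mouse 1, 40 of the 127 rose with a median of 0.62; without treated mouse 2, 36 rose, and without treated mouse 4, 35. Without the 5 arrays of low spike-in offset, 10 rose with a median of 0.69. Most of these genes have low ratios: 39 of the 127 were among the 16419 genes kept when those of lowest mean ratio were left out, and 1 of these 39 rose. In control hearts the 127 genes had a median difference of 0.35. There 51 of them were higher at an unadjusted p under 0.05 in limma's test, against 2.87% of all genes. In RNA of whole ventricle, more cells of a type and more RNA per cell cannot be told apart, nor does it show which cell type carried a transcript.

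**Figure D2:**
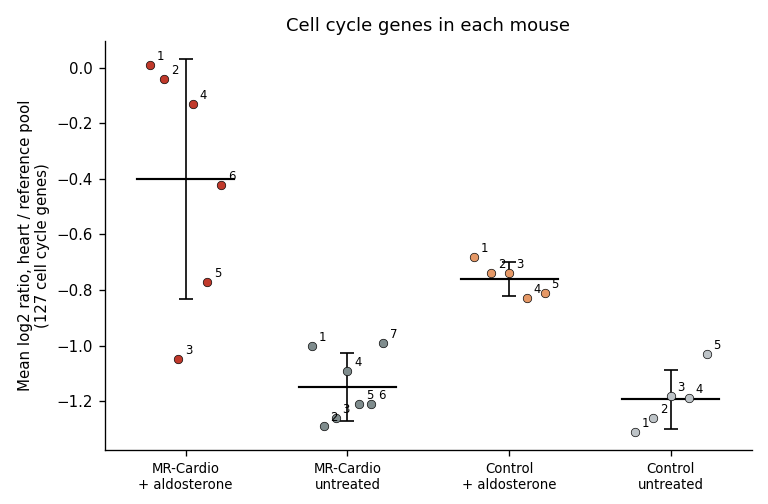
Mean log2 ratio of heart over reference pool for 127 cell cycle genes in each mouse (points, numbered by sample), with the group mean (line) and SD (bar). The treated MR-Cardio mice spread between −1.05 and 0.01, and the untreated MR-Cardio mice lie between −1.29 and −0.99.

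Cyclins, mitotic kinases and their regulators gave 18 rises and 0 falls among 40 measured genes. Pbk, a kinase active in mitosis, had a lowest, median and highest ratio of −1.49, 0.39 and 0.96 in treated mice and −2.96, −1.89 and −1.56 in untreated mice. Every treated mouse was above every untreated one, and the difference was 2.12 ± 0.38 (SE, 4.36-fold, limma adjusted p = 0.00875), the largest rise of the comparison. Bub1, a kinase of the spindle checkpoint, ran over −1.84, 0.25 and 0.71 in treated mice (lowest, median, highest) and −2.92, −1.97 and −1.53 in untreated mice. Its rise of 2.03 ± 0.34 (4.09-fold, limma adjusted p = 0.00764) held with 5 of the 6 treated mice above the untreated range. Its partner Bub1b rose 3.35-fold, and the kinase Melk rose 3.47-fold with no overlap between the groups. Mki67, whose protein coats mitotic chromosomes and marks cycling cells, ran over −3.41, −1.85 and −1.48 in treated mice and −4.15, −3.48 and −3.33 in untreated mice, a 2.72-fold rise. Ccna2, cyclin A2, rose 2.76-fold, and Mybl2, a transcription factor of late cell cycle genes, rose 1.85-fold. Aurka, the spindle pole kinase, differed by 0.74 (adjusted p = 0.0607) and E2f7, a repressor of E2F targets, by 0.33 (adjusted p = 0.0552), and neither passed.

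Kinetochore, spindle, chromosome and cytokinesis genes held the most calls, with 30 rises and 0 falls among 54 and a median difference of 1.03. Top2a, the topoisomerase that disentangles chromosomes, had ratios of −2.50, −0.54 and −0.29 in treated mice (lowest, median, highest) and −3.78, −2.55 and −2.23 in untreated mice. Treated mouse 3, at −2.50, was the one that overlapped, and the rise was 1.85 ± 0.33 (3.59-fold, limma adjusted p = 0.00875). Kif18b, a kinesin that shortens spindle microtubules, rose 3.26-fold with ratios of −0.56, 0.28 and 1.17 in treated mice against −1.90, −1.31 and −0.95 in untreated mice. The groups did not overlap. Prc1, which bundles microtubules of the central spindle, rose 2.91-fold, Sgo1, the protector of centromeric cohesion, 3.03-fold, Spag5, a spindle protein, 3.16-fold, Birc5, the chromosomal passenger survivin, 2.59-fold, and Kif22, a chromosome-bound kinesin, 2.34-fold. Each of these 5 genes had 5 of 6 treated mice above the untreated range. Ska1 (3.95-fold) and Kntc1 (3.56-fold), both of the kinetochore, Esco2 (3.28-fold), which acetylates cohesin, and Pimreg (3.82-fold), a regulator of the metaphase-anaphase transition, were also among the 12 largest rises. Kifc1, a minus-end kinesin of the spindle, had the smallest p of all genes and is named for that after its values were seen. It had −0.97, −0.53 and −0.23 in treated mice and −2.34, −1.90 and −1.45 in untreated mice, a 2.32-fold rise (limma adjusted p = 0.00109) that included treated mouse 3. Cks2 and Stmn1 differed by 1.21 and 0.50 and did not pass (adjusted p = 0.0579 and 0.0617).

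DNA licensing and replication genes gave 10 rises and 0 falls among 33, with a smaller median difference of 0.40. Exo1, an exonuclease of mismatch repair and recombination, rose 2.90-fold, with ratios of −1.98, −0.49 and 0.38 in treated mice against −2.72, −2.22 and −1.75 in untreated mice. Fanci of the Fanconi pathway rose 1.91-fold and Tk1, thymidine kinase, 1.53-fold. The ligase Lig1 (1.33-fold), the helicase subunit Mcm5 (1.48-fold) and the licensing factor Cdt1 (1.55-fold) passed, but each lost its call when any one of treated mice 1, 2 and 4 or untreated mouse 2 was left out. Mcm3 and Mcm6 differed by 0.56 and 0.95 and did not pass. Neil3, a glycosylase that repairs oxidised bases in replicating cells, was outside the lists and rose 4.24-fold, with −1.52, 0.35 and 0.90 in treated mice against −2.76, −2.05 and −1.37 in untreated mice. By symbol, and counted after values had been seen, 12 of 48 histone genes of the H1f, H2ac, H2bc, H3c and H4c series rose and 0 fell. Of all genes, 0.95% rose and 0.484% fell.

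Lcn2, which encodes the secreted iron-siderophore carrier lipocalin 2, had ratios of −0.38, −0.01 and 0.42 in treated mice (lowest, median, highest) and −1.56, −1.44 and −0.18 in untreated mice. Untreated mice 4 and 5, at −0.18 and −0.29, reached into the treated range, and mouse 1 was at −0.68. The rise was 1.00 ± 0.21 (2.00-fold, limma adjusted p = 0.0154), and it missed the threshold when treated mouse 4 was left out (adjusted p = 0.0522). In control hearts Lcn2 lay between −2.99 and −2.83 with aldosterone and between −3.12 and −2.83 without, a difference of 0.02. It was the 1 gene to pass of 28 measured acute-phase and lipocalin-associated genes (3.57%, against 1.43% of all genes). Serpina3n, an acute-phase protease inhibitor, had a difference of 1.00 ± 0.39 and did not pass (adjusted p = 0.231), with treated mice between −1.53 and 0.67 and untreated mice between −2.89 and −0.00. Saa2 and Cebpb differed by 0.30 and −0.32 and did not pass.

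Beyond the Nr3c2 ratios given above, 0 of 16 measured genes of aldosterone and angiotensin signalling passed (3 had an unadjusted p under 0.05 in limma's test). Mas1, a receptor for a short angiotensin peptide, differed by −1.05 (adjusted p = 0.13). Nr3c1, the glucocorticoid receptor, differed by −0.09, Hsd11b1, which regenerates active glucocorticoid, by 0.15 and Hsd11b2 by −0.59, and none of them passed.

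Of 37 measured corticosteroid-responsive genes, 2 rose and 0 fell, against 0.95% and 0.484% of all genes, and the median difference was 0.01. One was Lcn2 and the other Atp1b1, a subunit of the sodium pump, with −1.16, −0.59 and −0.13 in treated mice against −1.58, −1.17 and −0.74 in untreated mice (1.57-fold, limma adjusted p = 0.0463). Its call was lost without any one of 10 of the 13 mice. Fkbp5, a co-chaperone of steroid receptors, had 2.52, 3.30 and 3.89 in treated mice and 2.29, 3.22 and 3.72 in untreated mice, with almost full overlap and a difference of 0.23 ± 0.23 (adjusted p = 0.73). The differences of Sgk1 (−0.24), an aldosterone-induced kinase of the kidney, Tsc22d3 (−0.31), Per1 (−0.32), Zbtb16 (−0.37) and Gadd45a (−0.93) did not pass.

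Of the circadian clock genes, 5 of 18 fell in treated hearts and 0 rose, against 0.484% and 0.95% of all genes. By value 7 of the 18 were higher, against 45.6% of all genes. At an unadjusted p under 0.05 in limma's test 9 were lower and 3 higher, against 7.52% and 6.68% of all genes. The circadian clock is a loop in which Arntl and Clock drive genes through E-boxes, among them their own repressors and the PAR bZIP factors Dbp, Tef and Hlf, which carry the rhythm to output genes. Promoter windows of Tef at chr15:81802423-81802722 (plus strand) and Ciart at chr3:95882179-95882478 (minus strand) are shown because these genes did not overlap between the groups, with the E-box CACGTG in capitals.
Tef: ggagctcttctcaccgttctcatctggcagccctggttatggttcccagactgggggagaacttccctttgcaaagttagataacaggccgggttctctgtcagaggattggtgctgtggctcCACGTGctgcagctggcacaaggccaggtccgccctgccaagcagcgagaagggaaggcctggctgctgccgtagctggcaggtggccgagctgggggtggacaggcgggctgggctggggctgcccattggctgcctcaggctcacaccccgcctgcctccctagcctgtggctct
Ciart: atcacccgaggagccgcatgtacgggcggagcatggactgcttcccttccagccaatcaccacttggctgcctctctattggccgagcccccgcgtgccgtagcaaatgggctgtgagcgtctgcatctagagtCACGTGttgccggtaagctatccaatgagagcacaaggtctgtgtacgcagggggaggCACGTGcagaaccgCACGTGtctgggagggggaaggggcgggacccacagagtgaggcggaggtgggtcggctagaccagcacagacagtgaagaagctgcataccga
An E-box stood in the windows of 2 of the 5 genes that fell, those shown, and not in those of Dbp, Per3 and Nr1d2. It stood in 5 of 16 windows of measured clock genes (31.2%) and in 8.22% of the windows of measured genes. Tef had −0.17, 0.09 and 0.36 in treated mice and 0.45, 0.60 and 0.96 in untreated mice, a fall of −0.60 ± 0.11 (1.51-fold lower, limma adjusted p = 0.00885). Ciart, a repressor of Clock-Arntl, had −1.50, −0.94 and −0.40 in treated mice and −0.22, 0.36 and 0.98 in untreated mice, 2.34-fold lower (limma adjusted p = 0.0327). In both genes every treated mouse was below every untreated one. Dbp had −2.12, −1.24 and −0.46 in treated mice against −0.76, −0.27 and 0.26 in untreated mice and was 1.97-fold lower, with 5 of 6 treated mice below the untreated range. Per3, a period gene, was 1.85-fold lower, and Nr1d2, the nuclear receptor Rev-erb beta, 1.46-fold lower. The calls of Ciart, Per3 and Nr1d2 were each lost without treated mouse 1 and in 6 to 8 other omissions of 1 mouse. Per2 and Hlf had differences of −0.55 and −0.53 and did not pass. Arntl, named after its values were seen, had a difference of the other sign, 0.99 ± 0.32, and did not pass (adjusted p = 0.129). Without treated mouse 1, 2 of the 18 fell, and without the 5 arrays of low spike-in offset 0 passed, with a median difference of −0.25 against −0.34 over all 13 mice. In control hearts the differences were −0.41 for Per3, −0.37 for Ciart, −0.31 for Dbp, −0.10 for Tef and 0.04 for Nr1d2. With the hour of collection unknown, effects of aldosterone and of that hour cannot be told apart here.

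**Figure D3:**
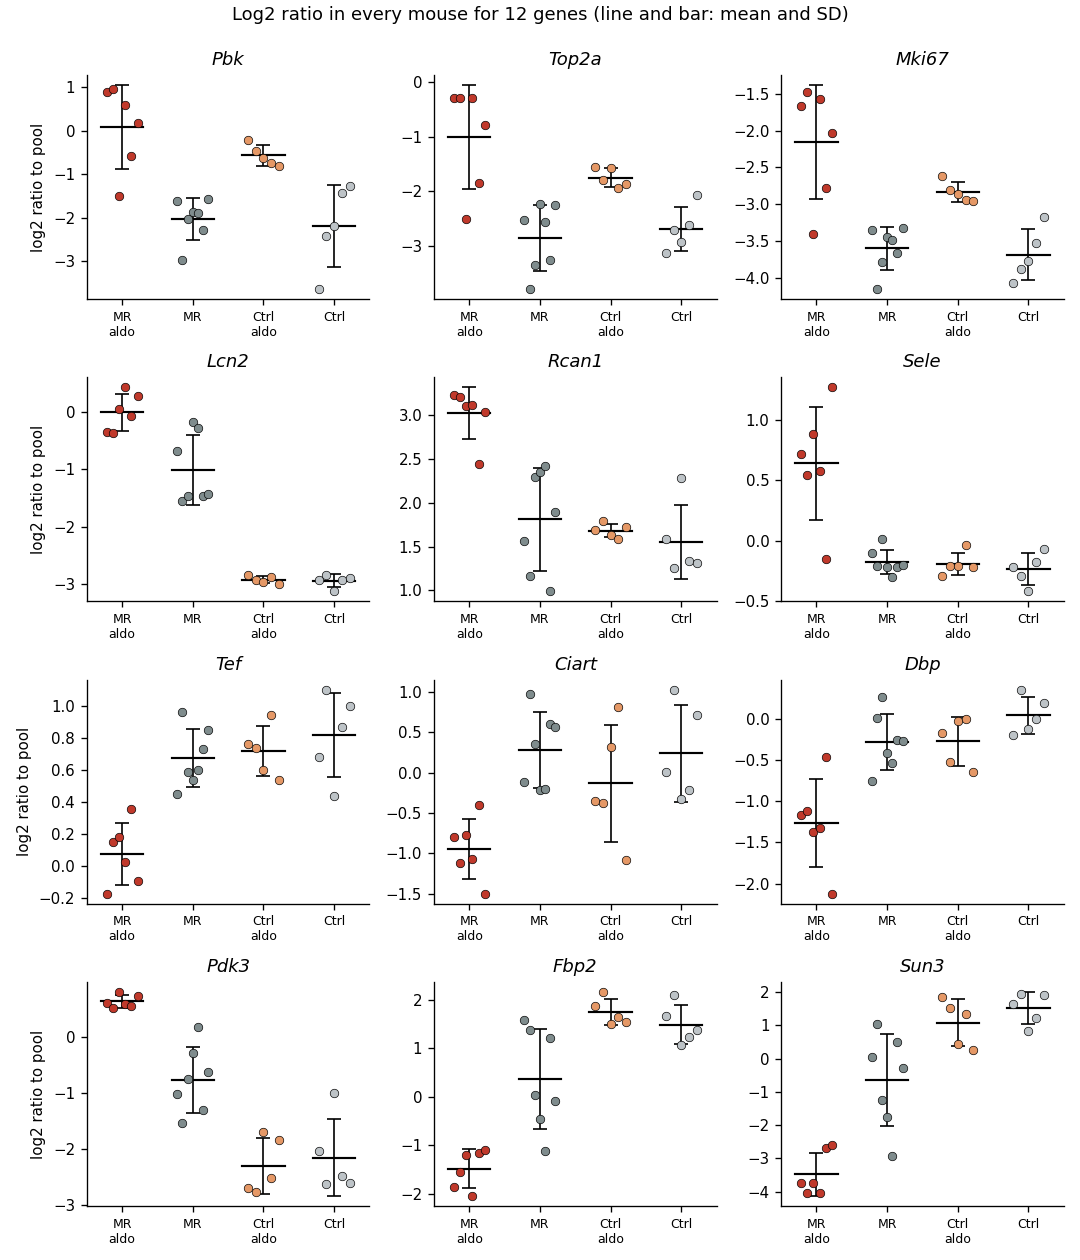
Log2 ratio of heart over pool in every mouse for 12 genes, with group mean (line) and SD (bar); MR is MR-Cardio, Ctrl is control and aldo is aldosterone. Pbk, Rcan1, Tef, Ciart and Pdk3 show no overlap between treated and untreated MR-Cardio mice, and in Lcn2, Fbp2 and Sun3 the untreated MR-Cardio mice have larger SDs (0.61, 1.04 and 1.39) than either control group.

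In glucose metabolism, 1 gene rose and 2 fell among 25, against 0.95% and 0.484% of all genes. Pdk3, a kinase that inhibits pyruvate dehydrogenase, had 0.51, 0.58 and 0.79 in treated mice and −1.54, −0.75 and 0.17 in untreated mice. The groups did not overlap, and the rise was 2.62-fold (1.39 ± 0.27, limma adjusted p = 0.0121). In control hearts the highest Pdk3 ratio was −1.70 with aldosterone and −1.01 without. Fbp2, muscle fructose-bisphosphatase, fell to −2.05, −1.39 and −1.09 in treated mice, against −1.12, 0.03 and 1.59 in untreated mice, and was 3.60-fold lower (limma adjusted p = 0.00946). Untreated mouse 5 had the lowest untreated value. Pfkfb2, the cardiac enzyme that makes an activator of glycolysis, had 1.96, 2.27 and 2.47 in treated mice and 2.47, 2.97 and 3.32 in untreated mice (1.61-fold lower, limma adjusted p = 0.01). Pfkp and Pgk1 of glycolysis differed by 0.54 and 0.29 and did not pass.

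Among 33 genes of fatty acid uptake and oxidation, 1 fell and 0 rose, against 0.484% and 0.95% of all genes. By value 30 were lower, where 45.6% of all genes were higher. The median difference was −0.33, and 15 of the 33 had an unadjusted p under 0.05 with a lower value, against 7.52% of all genes. Ucp3, a mitochondrial carrier of muscle induced by fatty acids, had −1.23, −0.79 and −0.46 in treated mice and −0.72, 0.21 and 1.17 in untreated mice and fell 2.21-fold (limma adjusted p = 0.0154). Acot2, a mitochondrial thioesterase, and Ppara, the nuclear receptor of fatty acid oxidation, differed by −0.75 and −0.42 and did not pass. The list's median was −0.23 without treated mouse 1. Within arrays of low spike-in offset it was 0.01, and within the others −0.48. Of 37 oxidative phosphorylation genes 36 were lower by value with a median of −0.17, but 0 passed and the median was −0.05 without treated mouse 1. Ndufa10 and Atp5a1, with the smallest p-values, differed by −0.31 and −0.26. Cardiomyocyte markers moved alongside: 1 of 12 was higher, 0 passed, and their median was −0.16 with treated mouse 1 and −0.03 without. The part of treated mouse 1 and of cardiomyocyte content in the lower metabolic medians was not tested.

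**Figure D4:**
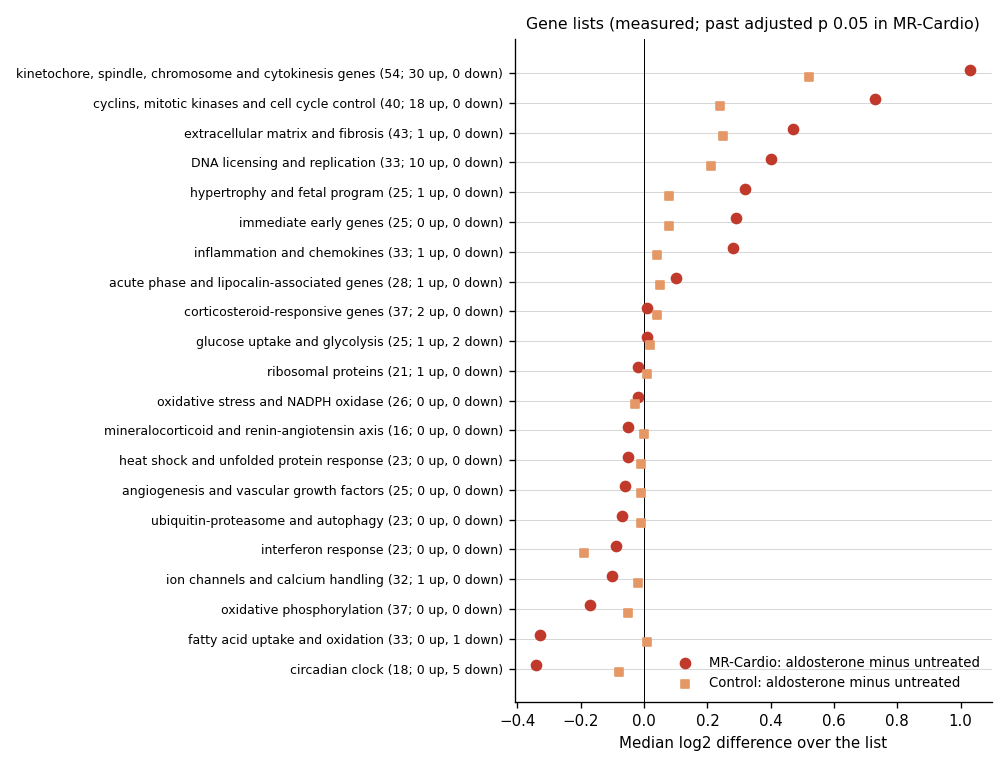
Median log2 difference over each gene list, aldosterone minus untreated, in MR-Cardio hearts (circles) and control hearts (squares); labels give measured genes and those that rose and fell in MR-Cardio hearts. Kinetochore and spindle genes have the highest median in MR-Cardio hearts, 1.03, and clock genes the lowest, −0.34.

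Of 25 hypertrophy and fetal program genes, 1 rose and 21 were higher by value, against 0.95% and 45.6% of all genes. The median difference was 0.32. Of the 25, 11 were higher at an unadjusted p under 0.05, against 6.68% of all genes. Rcan1, an inhibitor of calcineurin that is itself induced by calcineurin and NFAT, had 2.44, 3.11 and 3.23 in treated mice and 0.99, 1.89 and 2.42 in untreated mice. The groups did not overlap, and the rise was 2.32-fold (1.22 ± 0.22, limma adjusted p = 0.00875). In control hearts Rcan1 differed by 0.13. The natriuretic peptide genes Nppa and Nppb had differences of 0.87 ± 0.33 and 1.24 ± 0.51 and did not pass (adjusted p = 0.214 and 0.253). Myh7, the slow myosin heavy chain, had −0.22, 0.10 and 0.18 in treated mice and −3.23, −0.89 and 0.18 in untreated mice, so that 1 untreated mouse was as high as the highest treated one (difference 1.22 ± 0.47, adjusted p = 0.227). Myh6, the adult isoform, differed by −0.16. Fhl1 and Xirp1, which respond to stretch or injury of the sarcomere, differed by 1.10 and 0.52 and did not pass.

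Of 43 extracellular matrix and fibrosis genes, 1 rose and 38 were higher by value, against 0.95% and 45.6% of all genes. The median difference was 0.47. Ccn1, a matricellular protein, had 2.79, 3.20 and 3.47 in treated mice and 1.48, 2.38 and 2.96 in untreated mice (1.81-fold higher, limma adjusted p = 0.0426), a call that was lost without treated mouse 1 and in 7 other omissions of 1 mouse. Ccn2, connective tissue growth factor, had 1.89, 3.32 and 4.05 in treated mice and −0.58, 1.78 and 2.92 in untreated mice and did not pass (1.80 ± 0.52, adjusted p = 0.0866). The fibrillar collagen genes Col1a1 and Col3a1 differed by 0.59 ± 0.56 and 0.65 ± 0.53, Timp1 by 0.78 and Lox, which cross-links collagen, by 1.24, and none passed. Col1a1 was at 4.09 in treated mouse 1 and between 0.19 and 2.22 in the other treated mice. In untreated mice it was −0.45, −0.16 and −0.02 in mice 6, 2 and 1 and lay between 1.17 and 2.92 in mice 3, 4, 5 and 7. The difference of Col1a1 was −1.59 within arrays of low spike-in offset and 2.01 within the others, and the list's median was −0.655 and 1.162. Fibroblast markers behaved likewise: 11 of 14 were higher by value and 0 passed, with medians of −0.58 and 0.58 in these subsets. Summed as a mean, fibroblast markers lay between 1.85 and 3.45 in treated mice and between 1.51 and 3.14 in untreated mice, and their part in the matrix differences was not tested. Matrix differences thus had opposite signs in the 2 array subsets. The median of the cell cycle lists was 0.8 and 0.685, and 1 cell cycle gene passed within the low-offset arrays. These arrays are those of treated mice 4 and 6 and untreated mice 3, 4 and 7. Untreated mice 1, 2 and 6, of low Col1a1, are all in the other subset. Array offset and the state of these mice therefore cannot be told apart.

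Of 33 inflammation and chemokine genes, 1 rose and 30 were higher by value, against 0.95% and 45.6% of all genes. Sele, the endothelial adhesion molecule E-selectin, had −0.15, 0.65 and 1.27 in treated mice and −0.30, −0.21 and 0.01 in untreated mice. All but treated mouse 5 were above the untreated range, and the rise was 1.76-fold (0.81 ± 0.14, limma adjusted p = 0.00789). In control hearts the highest Sele ratio was −0.04 with aldosterone and −0.07 without. The SD was 0.47 in treated MR-Cardio mice, 0.10 in untreated ones, and 0.09 and 0.13 in controls with and without aldosterone. The pooled SE of Sele thus does not give the spread of the treated mice. In untreated controls Sele lay between −0.42 and −0.07, and Ptx3, another gene of the list, between −0.45 and −0.07. Whether such Sele ratios stand above the array background is not known from the values used here. The chemokine Ccl2 and the pentraxin Ptx3 differed by 0.69 and 1.20 and did not pass. Macrophage markers were higher by value in 14 of 15 genes, with a median of 0.19 here and 0.18 in control hearts, and 0 passed; C1qb differed by 0.40. Endothelial markers had a median of 0.00, and 0 of 12 passed. No marker of fibroblasts, macrophages, lymphocytes, neutrophils, endothelium, mural cells, mesothelium, adipocytes, glia or skeletal muscle passed. Of 9 erythroid markers Tfrc, the transferrin receptor, rose 2.63-fold (0.10, 1.18 and 1.52 in treated mice, −1.47, −0.62 and 0.96 in untreated mice, limma adjusted p = 0.0327, lost in 9 of 13 omissions of 1 mouse). Alas2, the erythroid haem enzyme, differed by 0.65 and Rhd by −0.63, and neither passed. By value, 6 of the 9 were higher, with a median of 0.18.

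Other lists held few or no calls, where 1.43% of all genes passed. Among 32 ion channel and calcium handling genes Fkbp1b, which stabilises the ryanodine receptor, rose 1.70-fold (limma adjusted p = 0.023). Atp2a2, the calcium pump of the sarcoplasmic reticulum, and Scn4b, a sodium channel subunit, differed by −0.45 and −1.73 and did not pass. Of 21 ribosomal protein genes Rps2 rose 1.62-fold, with 6 of 6 treated mice above the untreated range. The calls of Fkbp1b and Rps2 were each lost in 4 omissions of 1 mouse, among them treated mouse 4. In limma's test, 0 genes passed among 25 immediate early genes (7 higher at unadjusted p under 0.05), 25 angiogenesis genes (4 in either direction), 23 interferon response genes (0), 23 heat shock and unfolded protein response genes (3), 26 oxidative stress genes (4) and 23 ubiquitin and autophagy genes (6). Trim63, a muscle ubiquitin ligase, and Foxo3 differed by −0.29 and −0.61, and the antioxidant enzymes Nqo1 and Gpx3 by −0.72 and 0.73.

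The largest falls belonged mostly to genes outside the lists. Sun3, which encodes a nuclear envelope protein best known from testis, fell to −4.04, −3.75 and −2.60 in treated mice, against −2.92, −0.27 and 1.03 in untreated mice, 7.07-fold lower (−2.82 ± 0.50, limma adjusted p = 0.00875). Untreated mouse 5, at −2.92, lay among the treated mice. In control hearts it was between 0.26 and 1.87 with aldosterone and between 0.83 and 1.95 without. Kcnv2, a potassium channel subunit that is silent on its own, had −0.93, 0.31 and 0.72 in treated mice and 0.90, 1.84 and 4.25 in untreated mice (4.97-fold lower, limma adjusted p = 0.0173). Cib3 of the calcium and integrin binding family had −1.48, −1.04 and −0.55 in treated mice and −0.02, 1.58 and 2.38 in untreated mice, also 4.97-fold lower (limma adjusted p = 0.00764). Neither gene overlapped between the groups, nor did Zfp874a (3.99-fold lower), a zinc finger gene, Grin2c (2.51-fold lower), an NMDA receptor subunit, and Mrgprh (3.83-fold lower), an orphan receptor, whose highest treated and lowest untreated values both rounded to 0.24. The call of Grin2c was lost without treated mouse 1 or 4, and that of Mrgprh without treated mouse 4 or untreated mouse 6. Cpxm2, of the carboxypeptidase X family, had −0.45, −0.30 and 0.81 in treated mice and −0.19, 2.09 and 2.86 in untreated mice, 3.82-fold lower. The cone photoreceptor channel subunit Cngb3, the cadherin Cdh4, the acyl-CoA synthetase Acsm5 and the skeletal muscle calcium channel Cacna1s were between 2.57-fold and 3.89-fold lower. In omissions of 1 mouse, the call was lost 9 times for Cngb3, 8 times for Cacna1s, 3 times for Acsm5 and 0 times for Cdh4.

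Outside the cell cycle, the largest rises were those of Rbp4 and Rspo4. Rbp4, the retinol carrier of plasma, had −4.72, −4.26 and −3.14 in treated mice and −7.31, −6.17 and −4.53 in untreated mice, 4.19-fold higher (2.07 ± 0.33, limma adjusted p = 0.00764). In control hearts it lay between −7.07 and −6.74 with aldosterone and between −7.15 and −6.74 without. Whether such low ratios stand above the array background is not known from the values used here. Rspo4, an R-spondin that enhances Wnt signalling, had 3.36, 4.56 and 5.14 in treated mice and 0.86, 2.51 and 4.90 in untreated mice (3.96-fold higher, limma adjusted p = 0.0373), with 1 treated mouse above the untreated range, and its call was lost in 9 of the 13 omissions of 1 mouse. Among the 314 called genes, the ranges of treated and untreated mice did not overlap in 47 that rose and 29 that fell, where the shares of all genes were 0.301% and 0.242%. The calls came from the same values, so that nothing is read from this count. Untreated mouse 5 was the array whose omission raised the number of calls most, to 697, and all 314 were among them.

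In control hearts, aldosterone changed 0 of 21892 genes in limma's test (1036 had an unadjusted p under 0.05, 4.73%; smallest adjusted p = 0.513), and 8 passed with the control arrays alone in the fit. The interaction, which tests whether the effect differed between genotypes, was past the threshold in 0 genes as well (1197 at unadjusted p under 0.05, 5.47%; smallest adjusted p = 0.684). A difference between genotypes was thus not shown for any gene. The called genes were chosen by their difference in MR-Cardio hearts, which by itself makes their medians larger there, so the medians of both genotypes are given as a description only. By value, the risen genes had a median difference of 0.81 in MR-Cardio hearts and 0.35 in controls. In controls 192 of the 208 were also higher, against 52.2% of all genes. Of these, 92 were higher at an unadjusted p under 0.05, which 2.87% of all genes reached. The fallen genes had medians of −0.60 in MR-Cardio hearts and −0.06 in controls, where 71 of the 106 were lower. The cell cycle lists had a median of 0.72 in MR-Cardio hearts and 0.35 in controls. Their mean ratio lay between −0.83 and −0.68 in control mice with aldosterone, all above the −1.31 to −1.03 of untreated controls. Pbk differed by 1.62 in controls (unadjusted p = 0.00121) and Top2a by 0.94 (unadjusted p = 0.0212), and their interaction terms were 0.51 and 0.90. For Lcn2 the interaction term was 0.98 (unadjusted p = 0.00472, adjusted p = 0.876), for Rcan1 1.09 (adjusted p = 0.876), for Rbp4 2.02 and for Fbp2 −2.11 (adjusted p = 0.87 for both). The 5 genes with the smallest interaction p were Gm9548 (−1.16), Pfkfb2 (−0.99), Gramd1b (−0.85), Lpar3 (1.68), a receptor for lysophosphatidic acid, and 4921531C22Rik (−0.58). Pfkfb2 had a difference of −0.69 in MR-Cardio hearts and 0.30 in controls, and Lpar3 of 1.07 and −0.60.

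**Figure D5:**
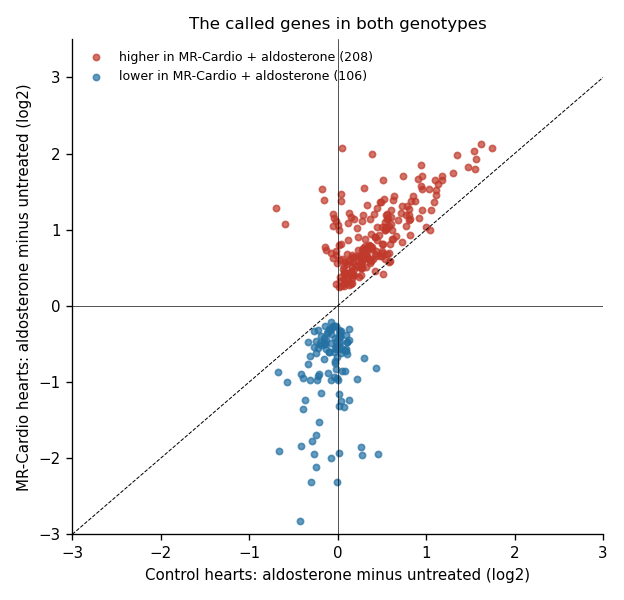
Aldosterone minus untreated (log2) in MR-Cardio hearts (vertical axis) and in control hearts (horizontal axis) for the 314 called genes; red points rose and blue points fell in MR-Cardio hearts, and the dashed line marks equal differences. Of the genes that rose 192 also lie right of 0, and of those that fell 71 lie left of 0.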

How the data were processed

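Ventricle RNA of 23 male mice in 4 groups had been hybridised to 2-colour Agilent arrays against a pooled reference, per the labels. The deposited values are 1 log2 ratio per probe and array; Agilent Feature Extraction 10.7.3.1 was used, per the submitters' processing notes. The sources used here do not say how background was corrected or values normalized. That the deposited log2 ratios are on base 2 and run heart over pool was read from spike-in controls and tissue markers. The values carry no intensities or background calls, so signal over background is unknown, and the number of arrays limits the precision.

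From 39485 lines, 56 control probes were removed; 30625 of 39429 probes had 1 gene symbol in the platform annotation and 8804 had none. Averaging probes with the same symbol left 21892 genes, and 15085 had a single probe. No 2 arrays held identical values, and the labels number each mouse separately. Group means were fitted to all 23 arrays with limma 3.58.1 (lmFit and eBayes, R 4.3.3), with Benjamini-Hochberg adjustment over all genes and a threshold of 0.05. Spike-in measures were compared by two-sided exact permutation tests (scipy 1.17.1). The fit was run on simulated data in which each gene had 1 spread shared by all 4 groups. It therefore cannot show how the fit behaves with the unequal spread described above. Promoter windows came from RefSeq (GRCm38.p6), which had a window for 17195 of the measured genes.

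Genes were named by rule: among passing genes, the 12 that rose most and the 12 that fell most, up to 6 passing members of each of 21 process and 17 marker lists with a few further members by smallest p, a panel of 22 genes, and the 5 smallest interaction p-values. The members, lists and rule were chosen with earlier results of these data known. Alternatives covered normalization, probe choice, low ratios, thresholds, arrays in the fit and omission of each mouse.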

Additional observations from a re-analysis of the deposited data

Results flagged for a closer look

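A mouse was picked out where its gap to the nearest mouse of its group was a large share of the group's range (Dixon's test at the 95% level), which chance does in about 1 in 20 groups. Among 270 groups of gene values 18 were picked out, and among 78 groups of list means 6. Treated mouse 1 accounted for 12 of these 24. It was the lowest treated mouse for Apoa2 at −3.86 (next −3.27), Wt1 at 0.79 (next 1.70), Saa2 at −8.92 (next −8.58), Ndufa10 at 0.79 (next 1.47), Atp5a1 at −0.05 (next 0.55), Zbtb16 at 0.33 (next 1.31) and Myh6 at 0.58 (next 1.70), and the highest for Lox at 6.86 (next 4.93). Its list means were the lowest for cardiomyocyte markers at 1.27 (next 1.95), glycolysis at 0.61 (next 0.97), oxidative phosphorylation at 0.64 (next 1.26) and ubiquitin and autophagy at 0.08 (next 0.23).

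Among the other treated mice, mouse 5 was highest for Cpxm2 at 0.81 (next −0.24) and lowest for Rcan1 at 2.44 (next 3.04), mouse 3 highest for S100a9 at −6.47 (next −6.82) and mouse 2 lowest for Btg2 at 0.36 (next 0.96). Among untreated mice, mouse 3 was highest for S100a9 at −4.64 (next −6.07) and for the neutrophil marker mean at −3.43 (next −4.16). Untreated mouse 6 was highest for Bst2 at −0.92 (next −1.56) and for the interferon response mean at 0.14 (next −0.97). Untreated mouse 1 was lowest for Per3 at 1.13 (next 1.92), mouse 2 highest for Nr3c1 at 0.29 (next 0.16), mouse 5 lowest for Sgk1 at −0.91 (next −0.22) and mouse 4 highest for Gm9548 at 0.57 (next 0.01).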

How the results depend on the processing

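The count of 314 genes became 0 with the compared groups alone in the fit, 94 of 16419 genes without those of lowest mean ratio, 680 and 76 at adjusted p thresholds of 0.1 and 0.01, and 138 to 697 when 1 mouse was left out. In subsets chosen after seeing the data it was 237 without the 5 arrays of low spike-in offset (84 of them among the 314), 870 within arrays of higher offset (206 shared) and 36 within those of low offset (9 shared). The cell cycle count of 58 became 26 at 0.01, 0 with the compared groups alone, 1 within low-offset arrays, 10 without the 5 low-offset arrays, 1 without the genes of lowest ratio and 35 to 78 with 1 mouse left out. The control count of 0 became 8 with the compared groups alone, and with 1 mouse left out the control and interaction counts were each 0 to 1. Same-numbered treated and untreated mice had deviations that correlated between −0.102 and 0.276. Of the 6 treated mice, 3 matched their own number best among the 7 untreated mice. The labels number each mouse separately, and the main fit did not pair mice by sample number. Whether mice of the same number share a factor was not tested. With the sample number as a replicate block 154 genes passed, 142 of them among the 314. The difference in spike-in slope, MR_Cardio_Aldo minus MR_Cardio, −0.0018 (two-sided exact permutation p = 0.714), was 0.003 with slopes by median and −0.0039 to 0.0014 with 1 mouse left out. Of 58 named genes that passed, 57 also did after centring, 51 after quantile normalization, 53 with array quality weights, 43 with the replicate block, 25 without the 5 low-offset arrays, 5 within low-offset arrays and 0 with the compared groups alone. Reversals were confined, among the alternatives run, to named genes that had not passed. Within low-offset arrays these were Apoa2 (0.04), Cr2 (0.10), Mx2 (0.14), Mas1 (0.05), Ndufa10 (0.06), Gpx3 (−0.12), Rpl3 (−0.03), Serpina3n (−0.09), Myh6 (0.19), Col1a1 (−1.59), Col3a1 (−1.30) and Timp1 (−1.04). Within higher-offset arrays, and without the low-offset ones, they were Cldn5 (−0.02) and Hsd11b1 (−0.36). Others were Per1 by its most variable probe (0.04), Apoa2 and Myh6 without treated mouse 1 (0.03 and 0.07; over all omissions of 1 treated mouse, −0.11 to 0.03 and −0.24 to 0.07), and Myh6 with quality weights (0.00). The cause was not tested.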

Other observations

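In several genes outside the cell cycle, untreated MR-Cardio mice spread widely, from the range of control hearts or beyond it to that of treated MR-Cardio hearts. Control and MR-Cardio arrays also differed in spike-in slope and liver marker ratios, so positions against controls are given as a description only. Sun3 was −2.92, −1.74 and −1.25 in untreated MR-Cardio mice 5, 4 and 3, and lay between −0.27 and 1.03 in the other 4, with treated MR-Cardio mice at −2.60 or lower and untreated controls at 0.83 or higher. Fbp2 was −1.12, −0.46, −0.09 and 0.03 in untreated MR-Cardio mice 5, 4, 7 and 3 and at least 1.21 in the other 3, with untreated controls at 1.06 or higher. Rbp4 was −4.53 in untreated MR-Cardio mouse 5, inside the treated range of −4.72 to −3.14. In untreated MR-Cardio mice 2 and 6 it was −7.31 and −7.29, below the untreated controls, which lay between −7.15 and −6.74. Nr3c2 was highest in untreated mice 5, 4 and 1, at 4.15, 3.95 and 3.8, and between 2.49 and 2.74 in the other 4. The order was not the same as for Fbp2, which was 1.59 in mouse 1. Mice 3 and 7, with Nr3c2 at 2.74 and 2.49, had Fbp2 at 0.03 and −0.09. Other genes were highest in the same untreated mice as Nr3c2. Lcn2 was −0.18, −0.29 and −0.68 in mice 4, 5 and 1 and −1.44 or lower in the other 4. Rspo4 was 4.90, 2.96 and 2.73 in mice 5, 4 and 1 and 2.51 or lower in the other 4. A relation between Nr3c2 and any of these genes was not tested.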
